A study of Mus musculus with 6 samples.

Results

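The genes described here are the 10 core genes of the circadian clock: Arntl (also called Bmal1), Clock, Per1, Per2, Per3, Cry1, Cry2, Nr1d1, Nr1d2 and Dbp. They were taken by symbol from a table of 13226 genes, and all 10 were in it. The table gives RNA-seq read counts of whole tibialis anterior (TA) muscle, a leg muscle of fast fibres, from male C57BL/6 mice injected at 8 weeks of age. One TA of each of 3 mice received AAV6:Yap-shRNA, an adeno-associated virus of serotype 6 that carries a short hairpin RNA against Yap, and the other TA received a control vector. The vector field names the control AAV6:LacZ-shRNA, whereas the sample titles call it an empty vector. Muscles were taken after 7 days, which gave 3 control and 3 Yap-shRNA muscles. The virus was injected into the muscle, so the reads mix transduced fibres with every other cell of the tissue, and the control differs from an uninjected muscle in ways not measured here.

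The clock is a loop of transcription that runs in nearly every cell, muscle fibres included. The proteins of Arntl and Clock pair and bind E-boxes, where they switch on the Per, Cry and Nr1d genes and Dbp. Per and Cry proteins return to the nucleus and silence that pair, while the nuclear receptors of Nr1d1 and Nr1d2 (Rev-erb alpha and beta) silence Arntl through ROR elements. Dbp drives output genes through D-boxes. In tissues of nocturnal rodents the Arntl transcript peaks around the end of the night, those of Nr1d1 and Dbp peak in the light, and those of the Per genes come later. The labels give a light/dark cycle but no hour of collection. The general animal methods of the study, which do not name these mice, place the killing of C57BL/6J mice early in the light phase, in the fed state, unless stated otherwise. The 6 muscles hold no time course.

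The motifs found near the starts of these genes are shown first, because the loop described above runs through elements of these kinds. RefSeq windows (build GRCm38.p6) from 250 bases before to 50 after a transcript start were found for 9 of the 10 genes, 13 windows in all. Per2 had no window and was not searched. Both strands were searched for the E-box CACGTG, the D-box TTATGNAA, the ROR element (AGGTCA preceded by AANT) and GGAATG, the motif of the TEAD factors that Yap partners. The matches are in capitals in the 30-base stretches below, each read 5′ to 3′ on the strand of the gene.
Arntl, ROR element, chr7:113207528-113207557, plus strand: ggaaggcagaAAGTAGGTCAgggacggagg
Per1, E-box, chr11:69098771-69098800, plus strand: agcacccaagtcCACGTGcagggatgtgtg
Cry1, E-box, chr10:85185097-85185126, minus strand: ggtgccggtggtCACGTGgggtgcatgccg
Per1, D-box, chr11:69098914-69098943, plus strand: agggcctggcaTTATGCAAcccgcctccca
Per3, first D-box, chr4:151044852-151044881, minus strand: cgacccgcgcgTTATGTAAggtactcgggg
Per3, second D-box, chr4:151044805-151044834, minus strand: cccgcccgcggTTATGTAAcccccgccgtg
Nr1d2, TEAD motif, chr14:18239231-18239260, minus strand: gccagagtgtaaGGAATGgagggaaaagga

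The E-box was in 2 of the 13 windows, 1 each of Per1 and Cry1, and in 7.15% of all 32851 promoter windows. The D-box was in 1 window each of Per1 and Per3, and in 3.38% of all windows. The ROR element was in 1 window of Arntl alone, 28 bases after the start, and in 0.219% of all windows. The TEAD motif was in the window of Nr1d2 alone, 142 bases before the start, and in 14.7% of all windows. A match says only that the letters are there.

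The knockdown was seen in the target gene. Yap1, the transcriptional coactivator targeted by the hairpin, was at 71.2, 65.3 and 68.4 CPM (counts scaled to a common library size) in control muscles 1, 2 and 3 and at 32.0, 23.9 and 39.5 CPM in Yap-shRNA muscles 1, 2 and 3. The groups did not overlap, and the Yap-shRNA mean was 46.5% of the control mean. An exact two-sided permutation test gave p = 0.1, the smallest that 3 against 3 muscles allow. The log2 fold change was -1.10 (SE 0.16), with adjusted p = 0.436 (edgeR, quasi-likelihood test, Benjamini-Hochberg adjustment over all genes). All CPM values are scaled by library size with TMM factors, and libraries held 11987167 to 12710393 counted reads.

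None of the 10 clock genes changed between the groups at an adjusted p below 0.05, by edgeR's quasi-likelihood test. All 10 had an adjusted p of 0.9999, and the share called among all genes was 0.0%. Without adjustment none of the 10 had p below 0.05, against 1.75% of all genes. Of the 10, 7 had a log2 fold change above 0 and 3 below, with a median of 0.02 on the log2 scale. Over all genes 6468 were above 0 and 6758 below, with a median of -0.0029. Arntl, at -0.23, and Per1, at 0.23, were farthest from 0.

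**Figure D1:**
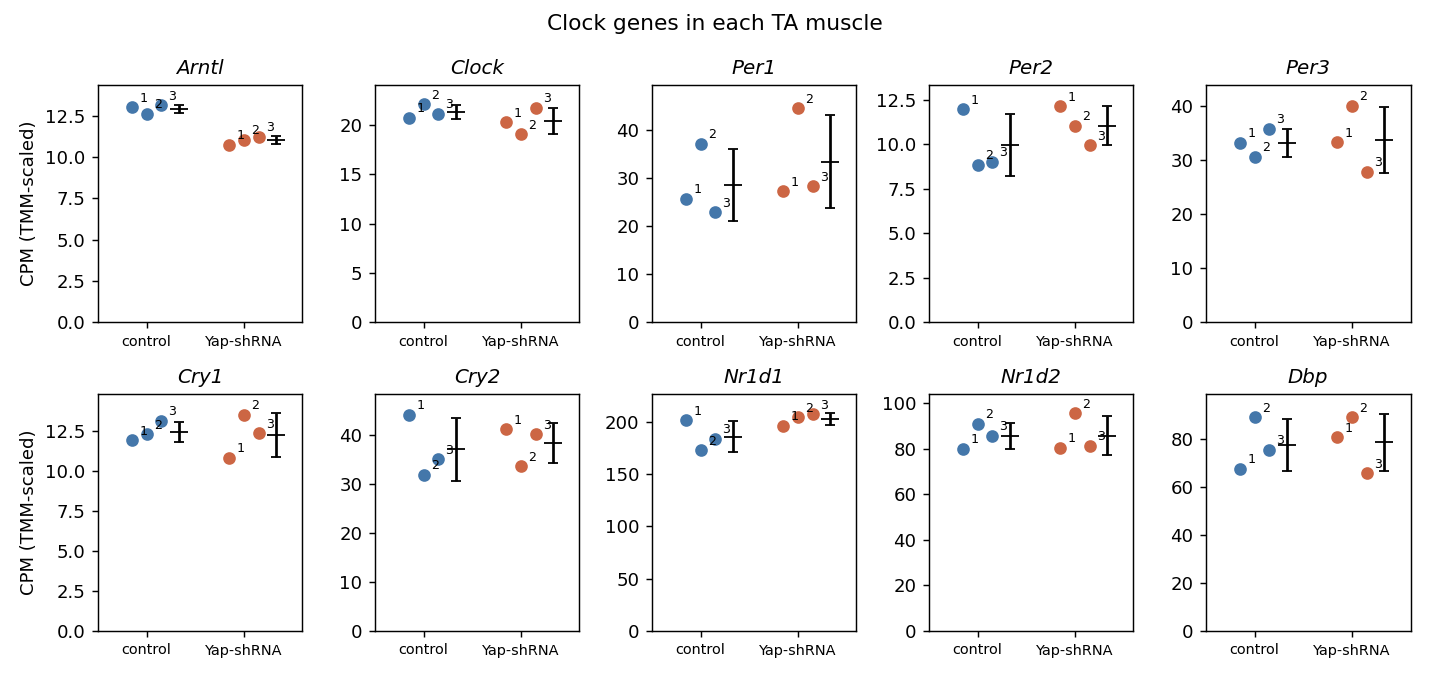
Level of each clock gene in CPM (vertical axes from 0) in every control and Yap-shRNA TA muscle, with the muscle's number beside its point and the mean with 1 SD (n = 3) beside each group. The Arntl points of the groups are apart (12.6 to 13.1 CPM in control, 10.7 to 11.2 CPM in Yap-shRNA), while those of the other 9 genes overlap.

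The activators were at low levels and varied little. Arntl encodes the basic helix-loop-helix factor without which the clock stops. It was at 13.0, 12.6 and 13.1 CPM in control muscles 1, 2 and 3 and at 10.7, 11.1 and 11.2 CPM in Yap-shRNA muscles 1, 2 and 3. Every Yap-shRNA muscle was below every control muscle. The group means were 12.9 ± 0.26 and 11.01 ± 0.26 CPM (SD, n = 3 each). The log2 fold change was -0.23 (SE 0.12, 95% interval -0.50 to 0.04), which is 0.853 of the control level with an interval from 0.707 to 1.03. Before adjustment, p was 0.0864 in the quasi-likelihood test of edgeR. Arntl was the only 1 of the 10 genes whose groups did not overlap with Yap-shRNA lower, a pattern held by 2.71% of all genes. None of the 10 had the opposite pattern, Yap-shRNA higher without overlap, which 2.56% of all genes had. In whole muscle, fewer cells of a type and less RNA per cell cannot be told apart.

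Clock, the partner of Arntl, is a transcription factor with histone acetyltransferase activity. Its level was 20.8, 22.2 and 21.2 CPM in control muscles 1, 2 and 3 and 20.3, 19.1 and 21.8 CPM in Yap-shRNA muscles 1, 2 and 3. The groups overlapped, since Yap-shRNA muscle 3 lay above control muscles 1 and 3. Clock had a log2 fold change of -0.07 (SE 0.10, 95% interval -0.30 to 0.16).

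The repressors of the Per family differed more between muscles than between groups. Per1, whose transcript also answers quickly to glucocorticoids and other signals, was at 25.7, 37.2 and 22.9 CPM in control muscles 1, 2 and 3. It was at 27.3, 44.6 and 28.4 CPM in Yap-shRNA muscles 1, 2 and 3. In both groups muscle 2 was far above muscles 1 and 3, and the highest of the 6 muscles held 1.95 times the level of the lowest. The log2 fold change was 0.23 (SE 0.23, 95% interval -0.28 to 0.74).

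Per2, the family member that is most needed for a steady rhythm, was at 12.0, 8.86 and 9.03 CPM in control muscles 1, 2 and 3. It was at 12.2, 11.1 and 9.97 CPM in Yap-shRNA muscles 1, 2 and 3. Here muscle 1 was the highest of each group, and control muscle 1 lay above 2 of the Yap-shRNA muscles. Its log2 fold change was 0.15 (SE 0.17, 95% interval -0.22 to 0.52).

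Per3, the member least needed for the rhythm itself, was at 33.2, 30.6 and 35.8 CPM in control muscles 1, 2 and 3. It was at 33.3, 40.0 and 27.8 CPM in Yap-shRNA muscles 1, 2 and 3. The Yap-shRNA muscles spanned the whole control range, with both the highest and the lowest of the 6 values among them. Per3 had a log2 fold change of 0.02 (SE 0.14, 95% interval -0.29 to 0.34).

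The cryptochromes, which bind the activator pair directly, also overlapped. Cry1 was at 11.9, 12.3 and 13.1 CPM in control muscles 1, 2 and 3 and at 10.8, 13.5 and 12.4 CPM in Yap-shRNA muscles 1, 2 and 3. Cry2 was at 44.2, 31.9 and 35.1 CPM in control muscles 1, 2 and 3 and at 41.2, 33.6 and 40.2 CPM in Yap-shRNA muscles 1, 2 and 3. For Cry2 muscle 1 was the highest and muscle 2 the lowest of both groups, the reverse of Per1 for muscle 2. Log2 fold changes were -0.02 (95% interval -0.33 to 0.28) for Cry1 and 0.05 (95% interval -0.27 to 0.36) for Cry2.

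The nuclear receptors of the second loop were well expressed and varied less between muscles than Dbp. Nr1d1, the heme-binding repressor of Arntl, was at 201.4, 172.5 and 183.6 CPM in control muscles 1, 2 and 3 and at 196.2, 204.2 and 207.1 CPM in Yap-shRNA muscles 1, 2 and 3. Control muscles 2 and 3 lay below all Yap-shRNA muscles, and control muscle 1 lay above Yap-shRNA muscle 1, so the groups overlapped. The means were 185.8 ± 14.6 and 202.5 ± 5.63 CPM (SD, n = 3 each), and the log2 fold change was 0.12 (SE 0.09, 95% interval -0.09 to 0.34). Its paralog Nr1d2 was at 80.1, 91.1 and 85.9 CPM in control muscles 1, 2 and 3 and at 80.5, 95.7 and 81.4 CPM in Yap-shRNA muscles 1, 2 and 3. Nr1d2 was highest in muscle 2 of both groups, with a log2 fold change of 0.00 (95% interval -0.23 to 0.24).

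Dbp, the PAR bZIP factor of the output arm, swings widely over the day in most tissues. It was at 67.7, 89.3 and 75.6 CPM in control muscles 1, 2 and 3 and at 81.0, 89.1 and 65.9 CPM in Yap-shRNA muscles 1, 2 and 3. The highest muscle of each group was muscle 2, and the lowest of the 6 was Yap-shRNA muscle 3. The means were 77.5 ± 10.9 and 78.7 ± 11.8 CPM (SD, n = 3 each), and the log2 fold change was 0.02 (SE 0.14, 95% interval -0.30 to 0.34).

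**Figure D2:**
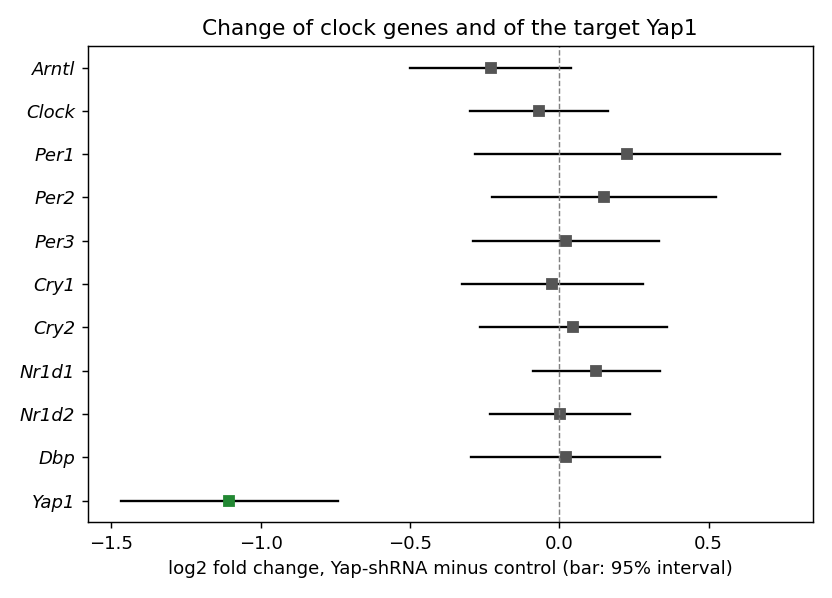
Log2 fold change (horizontal axis, Yap-shRNA minus control) of the 10 clock genes and of Yap1, with squares for estimates and bars for 95% intervals of edgeR's quasi-likelihood fit. Every clock gene interval includes 0, that of Arntl only just (-0.50 to 0.04), and that of Per1 is the widest (-0.28 to 0.74).

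The intervals set what the 6 muscles could show. That of Nr1d1 spans -0.09 to 0.34 and that of Clock -0.30 to 0.16 on the log2 scale. For Per1 a log2 change of up to 0.74 lies within the interval. The p values that miss the threshold therefore do not show equal levels.

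The spread between muscles of a group was measured as the SD of log2 CPM within groups. Arntl had the smallest of the 10, 0.03, and 99.8% of all genes had a larger one. Clock followed with 0.07 (94.0% of genes larger) and Nr1d1 with 0.08 (91.2% larger). Per1 had the largest, 0.38, and only 15.7% of genes exceeded it. The values between were 0.12 for both Nr1d2 and Cry1, 0.20 for Per2, Per3 and Cry2, and 0.21 for Dbp. The median over the 10 genes was 0.16, beside 0.194 over all genes. None of the 10 had an SD above 0.5, against 8.04% of all genes. The shares over all genes take in genes of every read depth and were not matched to the depth of the clock genes.

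Part of this spread is the counting of reads. Arntl had 128 to 167 reads per muscle, and its replicates varied less than counting alone would give, with a chi-square per degree of freedom of 0.0681. The same measure was 0.696 for Clock and 1.12 for Cry1, near the value of 1 that counting error gives. It was 2.61 for Per2, 20.8 for Dbp and higher still for Per1. In the remaining genes it was 9.61 for Cry2, 8.25 for Per3, 8.04 for Nr1d1 and 7.55 for Nr1d2. The median over all genes was 2.63. The small spread of Arntl, on which the separation of its groups rests, was thus below what its depth sets.

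**Figure D3:**
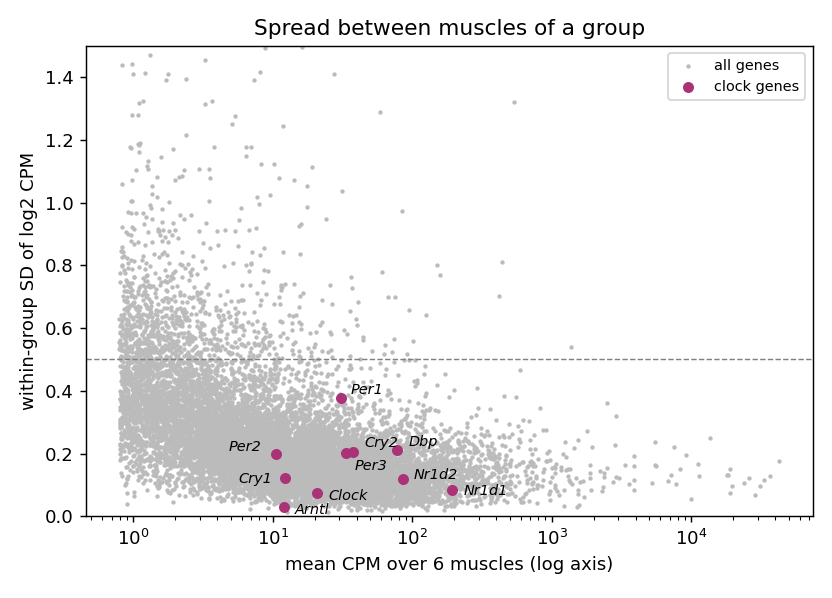
Within-group SD of log2 CPM (vertical axis) against mean CPM over the 6 muscles (horizontal log axis) for all genes (grey) and the 10 clock genes (purple), with a dashed line at an SD of 0.5. Arntl lies at the bottom at 0.03 and Per1 is the highest clock gene at 0.38, while 88 genes lie above the top of the axis.

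Levels of different genes were compared as CPM per kilobase of merged exons. Merged exons join those of all annotated transcripts of a gene and can be longer than the transcript made in muscle. The levels and their order therefore depend on the annotation. The first 3 genes kept their order in every muscle. Nr1d1 ranked first of the 10 in all 6 muscles, at 56.1 to 67.3 CPM per kilobase. Dbp ranked second in all 6, at 22.0 to 29.8, and Nr1d2 was next in all 6, at 14.8 to 17.7 CPM per kilobase. These 3 genes, the nuclear receptors and the output factor, do not overlap with each other or with the genes below.

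Below them neighbours changed places. Cry2, at 5.05 to 7.0 CPM per kilobase, and Per1, at 4.07 to 7.92, held ranks 4 and 5, and Per1 was the higher of the pair only in muscle 2 of each group. Cry1, at 3.24 to 4.05, and Per3, at 2.9 to 4.16 CPM per kilobase, swapped ranks 6 and 7. Per2 at 1.51 to 2.08, Arntl at 1.43 to 1.75 and Clock at 1.39 to 1.61 CPM per kilobase shared the last ranks, 8 to 10. Per2 was above both activators in control muscle 1 and in all Yap-shRNA muscles, and below both in control muscles 2 and 3. Within each of these sets the ranges over the 6 muscles overlapped, although Arntl lay above Clock in all 3 control muscles.

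**Figure D4:**
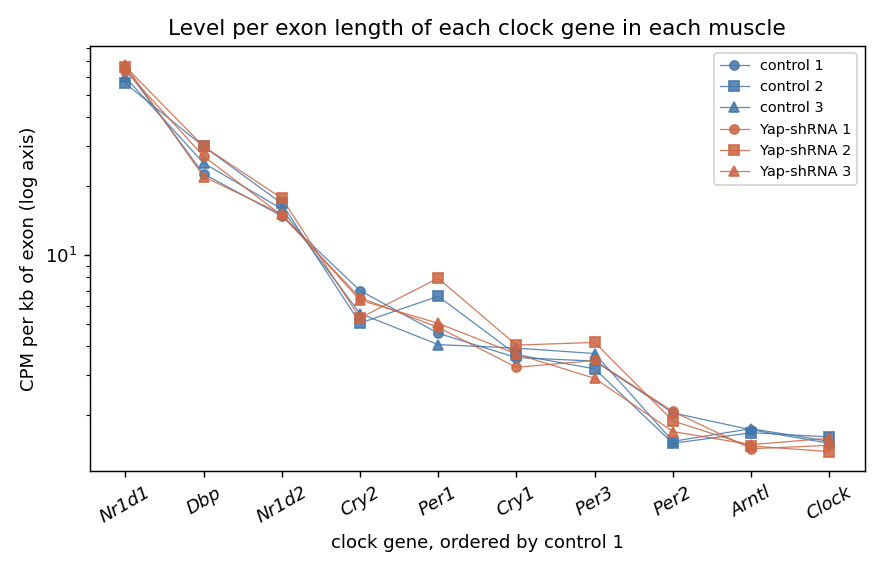
CPM per kilobase of exon (vertical log axis) of the 10 clock genes in each of the 6 TA muscles, 1 line per muscle, with genes ordered by their level in control muscle 1. Nr1d1, Dbp and Nr1d2 come first in that order in every muscle, and Per2, Arntl and Clock come last.

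The relation of the repressor and activator arms was read as ratios of these levels to Arntl. Since muscles were taken once, the ratios describe a state of the loop and not a phase, and they carry no test. Nr1d1 over Arntl was 5.24, 5.06 and 5.10 on the log2 scale in control muscles 1, 2 and 3, and 5.48, 5.50 and 5.49 in Yap-shRNA muscles 1, 2 and 3. As a plain ratio per kilobase the Nr1d1 transcript stood at 33.4 to 45.1 times the level of Arntl. Dbp stood at 13.1 to 20.3 times and Nr1d2 at 8.57 to 12.0 times the level of Arntl. Per2, by contrast, stood at 0.883 to 1.46 times and Clock at 0.876 to 1.06 times that level. The sizes of these ratios depend on the merged exon lengths, such as 3077 bases for Nr1d1 and 7523 for Arntl. In CPM without length, Nr1d1 was at 172.5 to 207.1 and Arntl at 10.7 to 13.1. Proteins were not measured.

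Between groups, the log2 ratio of Nr1d1 to Arntl averaged 5.13 ± 0.10 in control and 5.49 ± 0.01 in Yap-shRNA muscles (SD, n = 3 each), 0.36 higher in the latter. Arntl varied less within groups than the counting of its reads would give (chi-square per degree of freedom 0.0681). The SD of 0.01 is therefore no measure of the error of this ratio. The log2 ratio of Nr1d2 to Arntl, in order of muscle number, was 3.10, 3.33 and 3.19 for the control group and 3.38, 3.59 and 3.33 for the Yap-shRNA group. It did not overlap between groups, but control muscle 2 and Yap-shRNA muscle 3 were equal after rounding. The ratio of Cry1 to Arntl averaged 1.12 in control and 1.32 in Yap-shRNA muscles on the log2 scale, also without overlap. The other 6 ratios to Arntl overlapped, with differences of means from 0.161 for Clock to 0.45 for Per1. All 9 share Arntl as their denominator, the gene that was lower in all 3 Yap-shRNA muscles, so they are not separate results. Nr1d2 and Cry1 themselves had log2 fold changes of 0.003 and -0.02. The share of all genes whose ratio to Arntl does not overlap between groups was not counted.

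Within an arm the paralogs did not keep a fixed ratio. The log2 ratio of Per2 to Per1 per kilobase ran from -2.13 to -1.16 over the 6 muscles, and that of Cry2 to Cry1 from 0.395 to 1.01. The log2 ratio of Nr1d2 to Nr1d1 was steadier, from -2.16 to -1.73.

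The muscles numbered 2 stood apart in several clock genes, a pattern picked out after the values were seen. In Per1, Nr1d2 and Dbp, 3 of the 10, muscle 2 of the control and muscle 2 of the Yap-shRNA group were both above the other 4 muscles, against 10.5% of all genes. Per1 was 0.30 and 0.56 above its mean on the log2 scale in these muscles, Dbp 0.20 and 0.20, and Nr1d2 0.09 and 0.16. Cry2 was below its mean there, by 0.229 and 0.155. The labels do not say whether a number names a mouse.

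Genes outside the 10 shared the order of the number 2 muscles. Among listed responders to glucocorticoids, the steroid hormones that follow the daily cycle, Fkbp5 and Sgk1 did so, 2 of 5 measured, against 10.5% of all genes. Tsc22d3, Zbtb16 and Klf9 did not. Zbtb16, at 13.8 CPM, and Klf9, at 51.8 CPM, were at their lowest of the 6 muscles in control muscle 2. Mbp and Pmp22, genes of the nerve sheath, shared the order of the number 2 muscles. Mbp was at 30.2 and 28.4 CPM in control muscle 2 and Yap-shRNA muscle 2 and at 17.0 to 23.8 CPM in the other 4, and Pmp22 was at 48.8 and 44.5 CPM and at 36.1 to 43.4 CPM. Their part in the Per1, Nr1d2 and Dbp values was not tested.

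**Figure D5:**
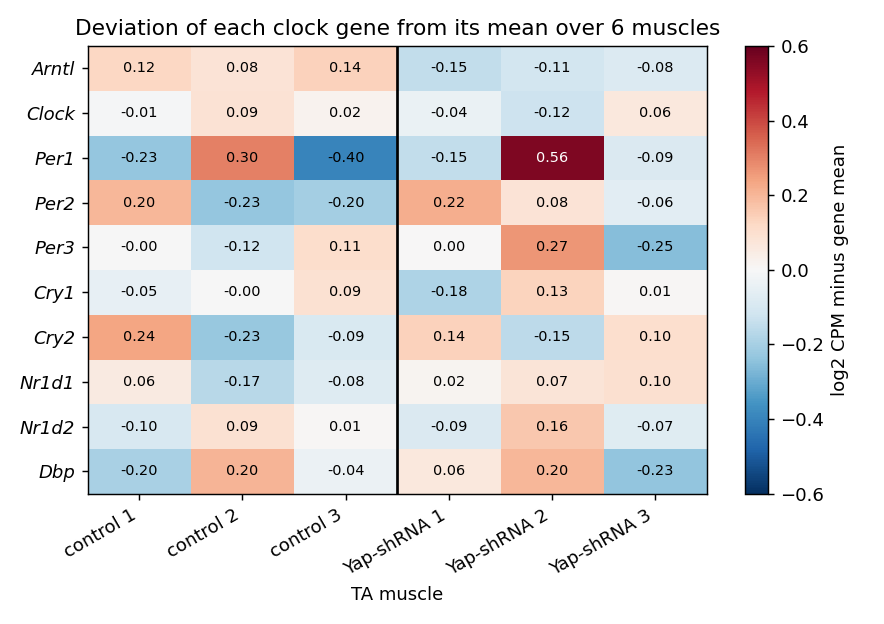
Deviation of each clock gene in each TA muscle from its own mean over the 6 muscles, as log2 CPM (colour and printed value; red above, blue below; the vertical line divides control from Yap-shRNA). Per1 in Yap-shRNA muscle 2 is the largest at 0.56, Per1 and Dbp are red in both muscles numbered 2, and Arntl is red in all control and blue in all Yap-shRNA muscles.

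The wider clock, from lists drawn up with results of these data known, gave no call either. Of 9 measured transcription factors outside the 10 (Npas2 and Rorb had no row in the table), 6 had log2 fold changes above 0 and 3 below, with a median of 0.02. Their extremes were Arntl2, a paralog of Arntl, at -0.51 (SE 0.30) and Ciart at 0.27 (SE 0.19). Ciart is a repressor of the Arntl and Clock pair. Arntl2 had only 15 to 39 reads per muscle, and its groups overlapped. Of 8 measured kinases and ubiquitin pathway enzymes that set the life of clock proteins, 5 were above 0 and 3 below (median 0.0066). Csnk1d, the kinase that marks Per proteins, was at 69.6 ± 2.60 CPM in control and 76.4 ± 1.02 CPM in Yap-shRNA muscles (SD, n = 3 each). It was the only 1 of the 8 that was higher in Yap-shRNA without overlap, a pattern of 2.56% of all genes. Its log2 fold change was 0.14 (SE 0.09), with an unadjusted p of 0.145 in edgeR.

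Of 8 output genes of muscle, 6 were above 0 and 2 below (median 0.07), and none passed the adjusted threshold. Coq10b, which serves coenzyme Q, was the only 1 of the 8 that was lower in Yap-shRNA without overlap, a pattern of 2.71% of all genes. Its log2 fold change was -0.07, with an unadjusted p of 0.474 in edgeR. Ucp3, a mitochondrial carrier that rises in fasting, was at 241.1, 123.4 and 88.9 CPM in control muscles 1, 2 and 3 and at 257.3, 119.1 and 78.6 CPM in Yap-shRNA muscles 1, 2 and 3. It was the only 1 of these 8 with a within-group SD of log2 CPM above 0.5, at 0.803. Its order over the numbers was the same in both groups, as was that of 18.7% of all genes. None of the clock genes had the order of Ucp3 in both groups, but Cry2 and Nr1d2 each kept another order in both. Of 5 immediate early genes, all were above 0, and Junb (log2 fold change 0.75) and Atf3 (1.02), 2 of the 5, had an unadjusted p below 0.05 in edgeR, against 1.75% of all genes. Both had an adjusted p of 0.9999 in edgeR. Junb was the only 1 of the 5 that was higher in Yap-shRNA without overlap, a pattern of 2.56% of all genes. It was at 12.3 ± 0.68 CPM in control and 20.7 ± 3.91 CPM in Yap-shRNA muscles (SD, n = 3 each). The groups overlapped for Atf3, whose within-group SD of log2 CPM was 0.69. Fosb, also on that list, was not measured.

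The tissue matched its label: all 9 listed markers of muscle fibres were present, at a summed 136000 to 166000 CPM. Markers of other cells were measured in every group. Macrophage markers summed to 83.5 to 207 CPM in control and 145 to 187 CPM in Yap-shRNA muscles, tendon markers to 126 to 639 and 145 to 529 CPM, and fibroblast markers to 572 to 1170 and 665 to 1370 CPM. Endothelial markers summed to 344 to 415 and 359 to 390 CPM, adipocyte markers to 227 to 262 and 225 to 251 CPM, and red blood cell markers to 120 to 203 and 101 to 243 CPM. Liver markers reached 347 CPM in control muscle 3, against 0.877 to 39.3 CPM in the other 5, and 3 of the 5 were at 0 in at least 1 library. Arntl kept its direction without control muscle 3, at a log2 fold change of -0.22. The groups overlapped for all of these sums. All 7 macrophage and all 5 red blood cell markers had log2 fold changes above 0, and all 9 muscle fibre and all 5 liver markers below 0. Tendon, fibroblast, endothelial and adipocyte markers went both ways. None of these markers had an adjusted p below 0.05 in edgeR. The tendon sum was highest in control muscle 1, at 639 CPM, and in Yap-shRNA muscle 3, at 529 CPM. The adipocyte sum was mostly Fabp4 (205.2 to 257.5 CPM), while Adipoq was at 16.4, Plin1 at 10.8 and Cidec at 8.53 CPM in Yap-shRNA muscle 3, each above its level in the other 5 muscles. Without that muscle the log2 fold change of Arntl was -0.24.

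Some exon stretches of clock genes lie where a gene on the other strand has exons too. Merged exons of Nr1d1 (chr11:98767932-98775333, minus strand) share 263 bases, 8.55% of them, with Thra, which averaged 71.7 CPM. Those of Dbp (chr7:45705088-45710203, plus strand) share 539 bases, 18.0%, with Sphk2, at 18.3 CPM. Those of Cry2 (chr2:92403646-92434043, minus strand) share 4.67% with a non-coding transcript, and those of Arntl (chr7:113207465-113314126, plus strand) share 0.439% with another. No source states the strand setting for this table, and the featureCounts defaults that the study names for its RNA-seq of sorted nuclei ignore strand. Whether reads from these stretches were counted, and for which gene, is therefore not known. Coordinates are those of GRCm38. The other 6 genes share no exon with another gene in that annotation.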

How the data were processed

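Whole TA muscle mRNA was sequenced by the authors in 6 muscles (3 control, 3 Yap-shRNA), and the deposited table gives raw read counts per gene. The submitters' processing notes name GRCm38 and bcl2fastq 2.20.0.422; no source states the aligner and counter for this table, and the study's methods name Skewer, STAR and featureCounts for its RNA-seq of sorted nuclei. No gene had under 60 reads in total, and all 13226 passed the minimum mean of 10 counts. TMM factors scaled the libraries, and edgeR 4.0.16 gave the tests (R 4.3.3; quasi-likelihood, group only, Benjamini-Hochberg over all genes, threshold 0.05). The control and treated muscles of 3 mice were fitted as separate samples, so differences between mice are part of the error. The p-values set each change against a spread estimated with information from all genes, not from that gene's muscles alone. The script was tested on simulated data, where 158 of 197 changed genes were recovered and 20 unchanged genes called. Log2 CPM used a prior count of 2. Exon lengths come from GENCODE and promoters from RefSeq, both GRCm38. Every member was named, and lists were counted whole. Members and lists were chosen with earlier results of these data known. Alternatives were DESeq2 1.42.0, limma 3.58.1 (voom), edgeR's likelihood ratio test, upper-quartile scaling, other filters, a replicate block and leaving out each muscle. Some marker and clock factor results are not reported here.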

Additional observations from a re-analysis of the deposited data

How the results depend on the processing

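No clock gene was called under any setting, and none had a within-group SD of log2 CPM above 0.5 under any. Over all genes the count called was 0 with edgeR's quasi-likelihood test (232 at an unadjusted p below 0.05), 5 with DESeq2, 5 with edgeR's likelihood ratio test, and 0 to 1 when single muscles were left out (Mir155hg without Yap-shRNA muscle 3). Yap1 had a log2 fold change of -1.10 in each of these tests, with adjusted p = 5.85e-07 in DESeq2 and 2.22e-06 in edgeR's likelihood ratio test, and ran from -1.29 to -0.93 with single muscles left out. Of 130 combinations of clock gene and setting, 119 kept their direction and 11 reversed, all of the latter with 1 muscle left out. The log2 fold change then ran from -0.038 to 0.46 for Per1, -0.12 to 0.14 for Per3, -0.10 to 0.057 for Cry1, -0.050 to 0.19 for Cry2, -0.082 to 0.050 for Nr1d2 and -0.079 to 0.14 for Dbp. Those that kept their direction ran from -0.25 to -0.21 for Arntl, -0.12 to -0.022 for Clock, 0.073 to 0.31 for Per2 and 0.073 to 0.19 for Nr1d1. With the replicate block, where muscles of 1 number are taken as paired, no gene was called. Per1 then had a log2 fold change of 0.22 (SE 0.10, unadjusted p = 0.0613 in edgeR, adjusted p = 0.9999) and Yap1 one of -1.13 (adjusted p = 0.105 in edgeR). Deviations of muscles sharing a number correlated at -0.0654, 0.196 and -0.315 over 13226 genes, and the labels do not tie numbers to mice. Reads per muscle numbered 106 to 154 for Per2, 128 to 167 for Arntl and 129 to 176 for Cry1, the 3 clock genes of lowest depth.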

Other observations

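The genes whose log2 CPM followed Dbp and Arntl most closely over the 6 muscles are given as a description, since the muscles come from 3 mice and share libraries with the genes compared. Of 9286 other genes with a mean of at least 5 CPM, those most like Dbp were Snrnp48, a part of the minor spliceosome (Pearson r = 0.9995), Rab28 (0.992) and Dapk3 (0.991), and the most opposite was Tmem252 (-0.991). In all, 170 genes had r above 0.9 with Dbp and 125 had r below -0.9. Among clock genes Nr1d2 came closest to Dbp, with r = 0.802 at rank 600, then Per1 with r = 0.719 at rank 1093, and Cry2 ran opposite with r = -0.776. The genes most like Arntl were Thrsp, a regulator of lipid synthesis (0.997), Pex3, of peroxisome assembly (0.966), and Trim32, a ubiquitin ligase of muscle (0.962). Its partner Clock had r = 0.483 at rank 867, and its repressor Nr1d1 had r = -0.556 at rank 8680.

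Over the 10 clock genes, the root mean square log2 difference between 2 muscles was smallest between control 1 and Yap-shRNA 1, at 0.134, and largest between control 3 and Yap-shRNA 2, at 0.349. Over all genes it ran from 0.368 to 0.621 among the same pairs of muscles.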
